A study of Mus musculus with 4 samples.

Results

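The hypoxia response and glycolysis genes are a set of 38 genes taken from a list of symbols: 14 glycolytic enzymes, 3 glucose and lactate transporters, 2 kinases that set glycolytic flux, 4 pyruvate dehydrogenase kinases, 4 genes of the oxygen-sensing machinery and 11 other targets of the hypoxia-inducible factors (HIFs). All 38 were found among the 29653 genes on the array, and each was read at its probe with the highest mean signal. The samples were Swiss 3T3 cells, a mouse fibroblast line, cocultured with bone marrow-derived mast cells in 100 ng/ml SCF, the growth factor of mast cells. There were 4 groups with 1 array each: Lpar1-/- fibroblasts labelled 24 h (KO 24 h), Lpar1+/+ fibroblasts labelled 24 h (WT 24 h), Lpar1-/- fibroblasts labelled 0 h (KO 0 h) and Lpar1+/+ fibroblasts labelled 0 h (WT 0 h). Lpar1 encodes a receptor for the signalling lipid lysophosphatidic acid. The Lpar1-/- line is 1 clone, grown from a single cell after Cas9 cutting next to exon 3, so that the deletion and the clone cannot be told apart. RNA from 3 samples was pooled for each array, which leaves no spread between replicates and no test. The sample titles call the 0 h cells cocultured too, while the design text speaks of fibroblasts with or without mast cells. The labels thus do not settle whether the 0 h cells had met mast cells.

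Glycolysis splits glucose into pyruvate and yields ATP without oxygen, and lactate dehydrogenase then turns pyruvate into lactate so that the pathway can go on. HIFs are pairs of an oxygen-regulated alpha subunit and the stable subunit ARNT. In the presence of oxygen, prolyl hydroxylases mark the alpha subunit for destruction, and when oxygen is short the pair binds a short DNA core near its targets. These targets include most glycolytic enzymes, the glucose transporter GLUT1 and pyruvate dehydrogenase kinases. Among them are also genes of mitophagy, acid balance, collagen modification and vessel growth. HIF-1 alpha is controlled mainly at the level of the protein, so that its transcript alone says little about its activity.

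Levels are normalized log2 signals, on which 0 is the array's own 75th percentile, and differences are log2 differences of these levels. A gene was counted as higher or lower where the 2 arrays differed by at least 2-fold, that is by at least 1 on the log2 scale. Errors are given as standard errors (SE) computed from the scanner software's error of each spot. On the log2 scale this spot error was about 0.144 for most members, also for Pfkm, whose probe has 10 spots. The SE is thus nearly constant and is not an observed spread. For members well above background on both arrays of a pair, the SE of a difference had a median of 0.20 and reached at most 0.32, and it covers neither culture nor labelling. Of the 38 members, 35 were well above background on all 4 arrays. Mxi1, which encodes an antagonist of MYC, did not reach the level of well above background anywhere. Precision is limited by there being 1 array per group.

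The Lpar1 probe read −3.61 on KO 24 h, −3.15 on WT 24 h, −3.43 on KO 0 h and −3.20 on WT 0 h, and since its position was not set against the edited site, these values are no check of the genotype. The fibroblast markers were mostly present, with 18 of 20 well above background on KO 24 h and 19 of 20 on each other array. Thy1, a surface protein of many fibroblasts, read 4.12 and 3.73 on the KO arrays (24 h and 0 h) but −7.02 on WT 0 h, and was not well above background on WT 24 h. Mast cell markers set the 0 h arrays apart: their median level over 25 genes was −4.72 on KO 24 h and −4.40 on WT 24 h, against 4.29 on KO 0 h and 3.18 on WT 0 h. Those well above background numbered 18 on KO 24 h and 18 on WT 24 h, against 24 on KO 0 h and 23 on WT 0 h. Their summed signal, in units of the array's 75th percentile, was 21.5 on KO 24 h and 2.99 on WT 24 h, against 739.4 on KO 0 h and 506.9 on WT 0 h. Spots well above background made up 62.1% on KO 24 h, 67.3% on WT 24 h, 71.5% on KO 0 h and 72.7% on WT 0 h.

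**Figure D1:**
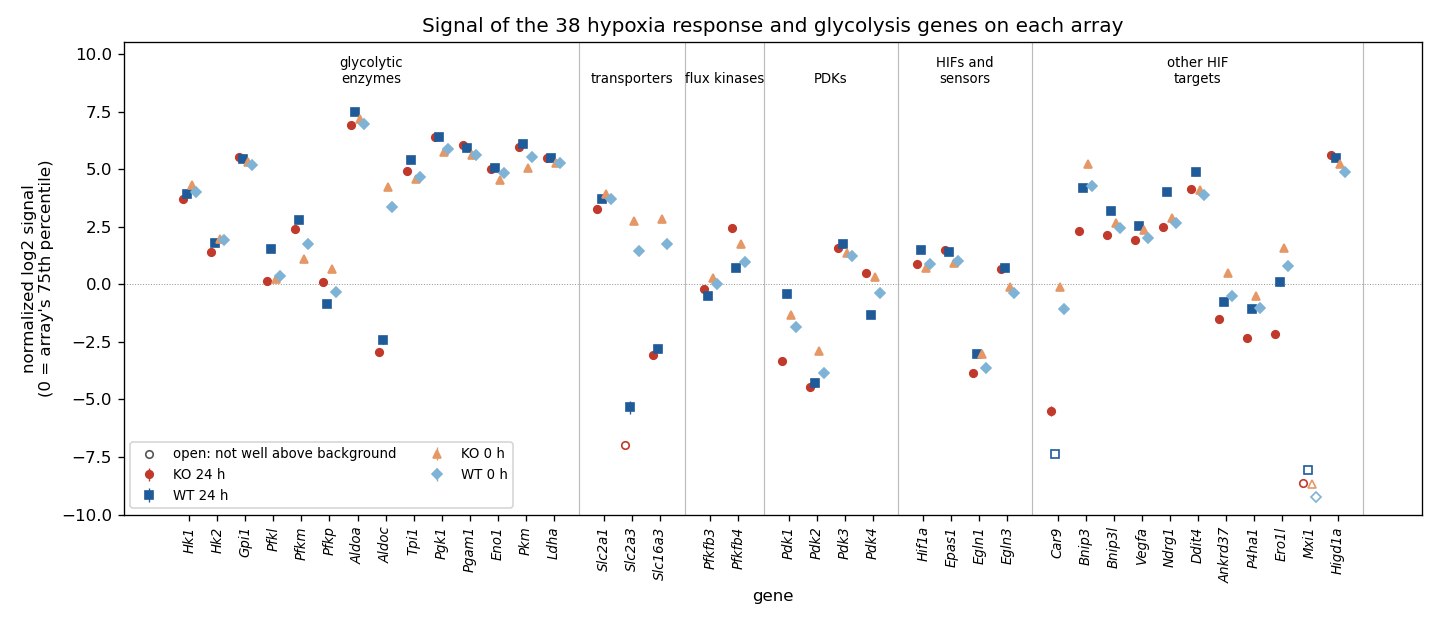
The normalized log2 signal of each of the 38 genes (y axis, 0 is the array's 75th percentile) on the KO 24 h, WT 24 h, KO 0 h and WT 0 h arrays, with genes grouped by role along the x axis. Bars are the spot SE, mostly smaller than the symbols, and open symbols are not well above background. Pdk1, Bnip3, Ero1l and P4ha1 lie lowest on KO 24 h, while Pgk1, Pgam1, Eno1 and Ldha lie close together on all 4 arrays.

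At 24 h, KO fibroblasts had lower signal than WT fibroblasts for a group of HIF targets outside the core of glycolysis. The 14 glycolytic enzymes had a median difference of −0.18. Pdk1, Ero1l, Bnip3, Ndrg1, Pfkl, P4ha1 and Bnip3l were lower in KO by at least 2-fold, and Pdk4 and Pfkfb4 were higher. This makes 7 lower and 2 higher of the 35 members measured on both arrays, or 20% and 5.71%. Over all 17285 genes measured there, 12.3% were lower by at least 2-fold and 5.76% higher. Many of the lower genes of that background are dim: among the 14557 genes brighter than the arrays' median the shares were 7.29% lower and 6.36% higher. The median difference was −0.39 over the 35 members and −0.09 over all genes. The fibroblast markers were lower in KO by at least 2-fold in 4 of 17 (23.5%) and higher in 1, with 14 of 17 below 0 and a median of −0.12, and their part in the members' differences was not tested. Both 24 h arrays carried little mast cell signal, although the mast cell markers measured there had a median KO minus WT difference of 0.69 over 16 genes, and Il1rl1, the IL-33 receptor, read 3.86 on KO 24 h and −2.24 on WT 24 h.

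The 11 other HIF targets showed the most differences at 24 h: of the 9 measured on both arrays, 5 (55.6%) were lower in KO and none was higher. Over all genes 12.3% were lower and 5.76% higher, and among those brighter than the arrays' median 7.29% and 6.36%. The median difference of the 9 was −1.04. Bnip3 and Bnip3l encode receptors on the outer mitochondrial membrane that direct mitochondria to autophagy. Bnip3 read 2.33 on KO 24 h and 4.19 on WT 24 h, against 5.21 on KO 0 h and 4.25 on WT 0 h. KO 24 h was thus the only array on which Bnip3 stood below 4, and KO minus WT at 24 h was −1.86 (SE 0.20), a 3.64-fold lower signal in KO. Bnip3l read 2.15 on KO 24 h and 3.18 on WT 24 h, against 2.67 on KO 0 h and 2.43 on WT 0 h. Its difference of −1.04 at 24 h lay just past 2-fold, and WT 24 h was its highest array.

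Ero1l (Ero1a in RefSeq) encodes the oxidase that drives disulfide bond formation in the endoplasmic reticulum, and P4ha1 the catalytic subunit of collagen prolyl 4-hydroxylase. Ero1l read −2.18 on KO 24 h and 0.08 on WT 24 h, against 1.57 on KO 0 h and 0.78 on WT 0 h, which gave a KO minus WT difference of −2.26 (SE 0.20) at 24 h. P4ha1 read −2.34 on KO 24 h and −1.06 on WT 24 h, against −0.49 on KO 0 h and −1.04 on WT 0 h. P4ha1 differed by −1.28 at 24 h. For both genes KO 24 h was the lowest array and KO 0 h the highest.

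Ndrg1, a stress-responsive gene used as a hypoxia marker, read 2.47 on KO 24 h and 4.02 on WT 24 h, against 2.90 on KO 0 h and 2.67 on WT 0 h. Here it was WT 24 h that stood above the other 3 arrays, and KO minus WT at 24 h was −1.55. Other targets fell short of 2-fold. Ddit4, an inhibitor of mTORC1 signalling, differed by −0.73 at 24 h, with 4.13 on KO 24 h, 4.86 on WT 24 h, 4.11 on KO 0 h and 3.89 on WT 0 h. Ankrd37, an ankyrin repeat protein, also differed by −0.73 at 24 h, and read −1.49 on KO 24 h, −0.76 on WT 24 h, 0.47 on KO 0 h and −0.51 on WT 0 h. Vegfa, the growth factor of vessel endothelium, differed by −0.60 at its brightest probe and by 0.25 at its other probe, so that its direction at 24 h was not settled. Higd1a, a small mitochondrial protein, read 5.59 on KO 24 h and 5.49 on WT 24 h and differed by 0.10. Car9, a carbonic anhydrase at the cell surface, read −5.49 on KO 24 h and was not well above background on WT 24 h, which makes it at least 1.59-fold higher in KO.

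The 4 pyruvate dehydrogenase kinases switch off the enzyme complex that uses pyruvate inside the mitochondria, and they did not move together. Pdk1, the family member best known as a HIF-1 target, read −3.31 on KO 24 h and −0.44 on WT 24 h, against −1.33 on KO 0 h and −1.83 on WT 0 h. Its KO minus WT difference at 24 h, −2.87 (SE 0.21), was 7.33-fold and the largest of any member measured on both arrays. Pdk4, which is known for its induction in fasting, stood the other way, with 0.50 on KO 24 h and −1.32 on WT 24 h, against 0.30 on KO 0 h and −0.39 on WT 0 h. WT 24 h was its lowest array, and KO minus WT at 24 h was 1.82 (SE 0.20). Pdk3 differed by −0.14, with levels between 1.24 and 1.73 over the 4 arrays. Pdk2 differed by −0.17 at 24 h at low levels, −4.47 on KO 24 h and −4.29 on WT 24 h.

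Of the enzymes, Pfkl alone passed 2-fold at 24 h, or 7.14% lower against 12.3% of all genes. It encodes the liver-type subunit of phosphofructokinase, the committed step of glycolysis, and read 0.12 on KO 24 h and 1.55 on WT 24 h, against 0.22 on KO 0 h and 0.35 on WT 0 h. WT 24 h stood above the other 3 arrays, which lay close together, and KO minus WT was −1.42. The platelet-type subunit gene Pfkp lay just under 2-fold the other way, by 0.94, with 0.08 on KO 24 h and −0.85 on WT 24 h, and the muscle-type subunit gene Pfkm differed by −0.40. Over the 14 enzymes the median difference was −0.18, or −0.08 relative to all genes. Ldha, the muscle-type lactate dehydrogenase, read 5.47 on both 24 h arrays. Pgk1, the first ATP-yielding step, differed by 0.01, Eno1, the enolase, by −0.05, Gpi1, the phosphoglucose isomerase, by 0.09, Pkm, the pyruvate kinase, by −0.12, and Pgam1, the phosphoglycerate mutase, by 0.14. The differences of Pgk1, Eno1, Gpi1, Pkm, Pgam1 and Ldha were smaller than their spot SE, which covers neither culture nor labelling nor scaling. With arrays scaled on fibroblast markers the enzyme median became 0.22 and that of all genes 0.30. Small differences thus do not show that these enzymes were unchanged. The hexokinase genes Hk1 and Hk2, whose products trap glucose in the cell, differed by −0.23 and −0.39. Tpi1, the triosephosphate isomerase, differed by −0.46, and the aldolase genes Aldoa and Aldoc by −0.59 and −0.52.

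Pfkfb3 and Pfkfb4 make and remove fructose 2,6-bisphosphate, the activator of phosphofructokinase. Pfkfb4 read 2.44 on KO 24 h and 0.71 on WT 24 h, against 1.73 on KO 0 h and 0.96 on WT 0 h, so that both KO arrays stood above both WT arrays. Its KO minus WT difference was 1.73 (SE 0.20) at 24 h. Pfkfb3 differed by 0.26 at its brightest probe and by −0.55 at its other probe. Among the transporters, Slc2a1 (GLUT1) differed by −0.45 at 24 h, and Slc16a3, the lactate exporter MCT4, by −0.27. Slc2a3 (GLUT3) was not well above background on KO 24 h and read −5.35 on WT 24 h, which puts it at least 2.54-fold lower in KO.

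At their brightest probes none of the oxygen-sensing genes passed 2-fold between genotypes at 24 h. Hif1a, the oxygen-regulated subunit of HIF-1, read 0.88 on KO 24 h and 1.50 on WT 24 h, against 0.72 on KO 0 h and 0.87 on WT 0 h, a KO minus WT difference of −0.62 at 24 h. Epas1, the subunit of HIF-2, differed by 0.07 at its brightest probe and by 0.14 and 1.11 at its others, the last past 2-fold. Egln1 and Egln3 encode prolyl hydroxylases that mark the HIF alpha subunits, and Egln3 is itself a HIF target. Egln1 differed by −0.86 at 24 h, with −3.87 on KO 24 h and −3.01 on WT 24 h. Egln3 differed by −0.07.

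**Figure D2:**
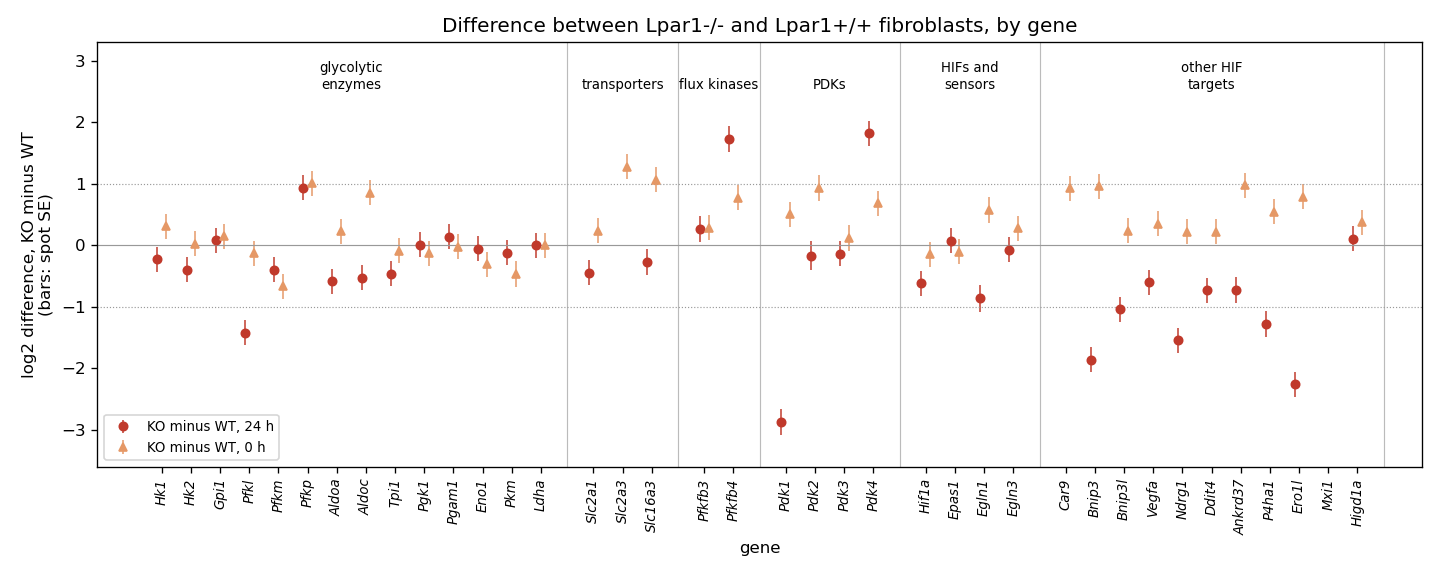
The log2 difference KO minus WT (y axis) of each gene at 24 h (circles) and at 0 h (triangles), grouped by role along the x axis. Bars are spot SE and dotted lines mark 2-fold, and a gene not well above background on an array of the pair has no point. At 24 h Pdk1 (−2.87), Ero1l (−2.26) and Bnip3 (−1.86) lie lowest and Pdk4 (1.82) and Pfkfb4 (1.73) highest, and no gene lies past the lower dotted line at 0 h.

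Where a gene had more than 1 measured probe, the probes gave a check that does not depend on a single spot, although they share the array and the RNA. All 3 probes of Bnip3 were lower in KO at 24 h, by −2.18 to −1.86. The 4 probes of Bnip3l ran between −1.09 and −0.88, on both sides of 2-fold. Those of P4ha1 read −1.74 and −1.28. Pdk1, Ero1l, Ndrg1 and Pfkl, as well as Pdk4, rest on 1 probe each, and the second probe of Pfkfb4 failed that mark on all 4 arrays. The 3 probes of Ldha lay between −0.06 and 0.09, those of Gpi1 between −0.15 and 0.09, and the 2 of Pkm at −0.14 and −0.12.

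**Figure D3:**
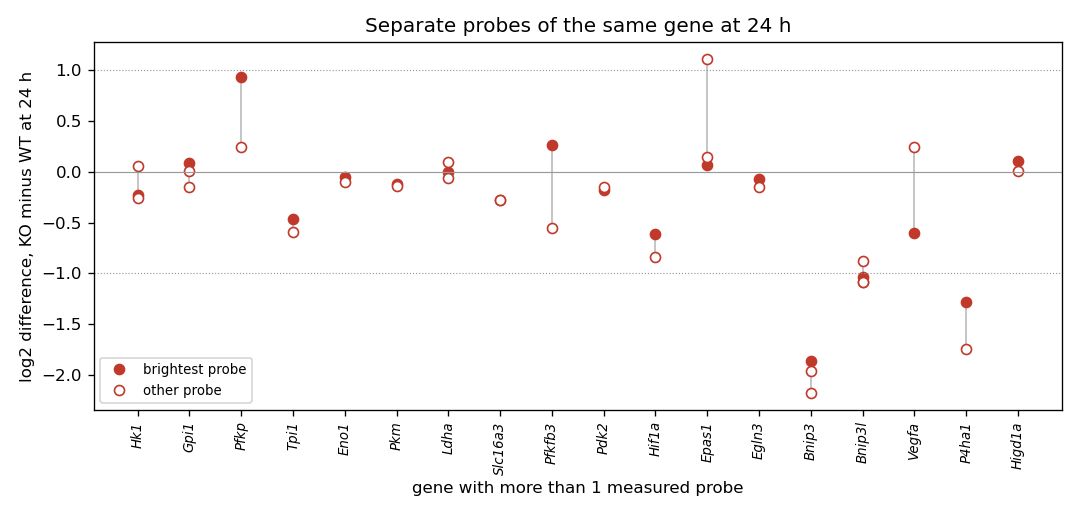
KO minus WT at 24 h on the log2 scale (y axis) for every probe well above background on both arrays, for the genes with more than 1 such probe (x axis). Filled circles are the brightest probe, used for the gene's value, open circles are the others, and dotted lines mark 2-fold. The probes of Bnip3 all lie between −2.18 and −1.86, and those of Epas1 spread from 0.07 to 1.11.

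On the mouse build mm9, as the array files place them, the brightest probe of Pdk1 lies at chr2:71739688-71739747, of Ero1l at chr14:45904192-45904251, of Bnip3 at chr7:146082760-146082819, of P4ha1 at chr10:58835625-58835684 and of Ndrg1 at chr15:66761057-66761116. Those of Pfkl and Bnip3l lie at chr10:77450926-77450985 and chr14:67606210-67606269. Whether these positions fall in an untranslated region was not analysed here.

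The promoters of 4 genes that were lower in KO at 24 h are shown beside those of 2 glycolytic genes that were not, because HIF binds a core that both kinds of promoter can carry. Each line gives the 150 bases before the transcription start, 5′ to 3′ on the gene's own strand, from RefSeq on GRCm38.p6. Capitals mark the cores searched, which are ACGTG and its variant GCGTG. Both were searched on either strand, so that capitals can also show the reverse complement. The core overlaps the palindromic E-box of MYC-type factors, which is counted once on each strand. Bnip3 lies at chr7:138909507-138909656 (minus strand), Ero1l at chr14:45318573-45318722 (minus), P4ha1 at chr10:59323146-59323295 (plus) and Pdk1, at the first of its starts, at chr2:71873074-71873223 (plus). Pgk1 lies at chrX:106186950-106187099 (plus) and Ldha, at the first of its starts, at chr7:46845654-46845803 (plus).
Bnip3: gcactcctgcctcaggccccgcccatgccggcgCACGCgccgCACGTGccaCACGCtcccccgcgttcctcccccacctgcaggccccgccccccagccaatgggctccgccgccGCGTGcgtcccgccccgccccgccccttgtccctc
Ero1l: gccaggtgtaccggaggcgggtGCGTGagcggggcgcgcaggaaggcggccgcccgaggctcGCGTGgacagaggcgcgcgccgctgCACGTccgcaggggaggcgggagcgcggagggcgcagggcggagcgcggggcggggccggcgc
P4ha1: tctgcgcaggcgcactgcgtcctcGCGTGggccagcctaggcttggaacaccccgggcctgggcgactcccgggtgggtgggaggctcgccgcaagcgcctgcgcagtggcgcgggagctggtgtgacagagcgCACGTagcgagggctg
Pdk1: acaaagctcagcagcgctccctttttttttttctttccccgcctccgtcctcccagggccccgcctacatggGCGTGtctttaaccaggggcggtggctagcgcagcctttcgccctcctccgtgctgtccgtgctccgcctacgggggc
Pgk1: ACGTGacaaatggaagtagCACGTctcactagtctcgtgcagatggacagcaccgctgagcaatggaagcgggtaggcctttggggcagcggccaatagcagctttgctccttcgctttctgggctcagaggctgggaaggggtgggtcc
Ldha: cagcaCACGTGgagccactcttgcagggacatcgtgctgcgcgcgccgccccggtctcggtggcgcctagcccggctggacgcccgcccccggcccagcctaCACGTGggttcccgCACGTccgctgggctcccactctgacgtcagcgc

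The stretches of Bnip3 and Ldha each hold 5 cores, that of Ero1l 3, those of P4ha1 and Pgk1 2 each, and that of Pdk1 1. Outside the lines shown, the same 150 bases of Pfkl, which was lower in KO, hold 1 core, and those of Gpi1 and Tpi1 hold 0. In windows from 250 bases before to 50 after the start, ACGTG stood in 19.6% of all 32851 RefSeq windows and either core in 43.8%. RefSeq windows were matched for 34 of the 38 members, with 51 starts in all, and none for Slc2a3, Epas1, Bnip3l and Ndrg1. Of these 51 windows, 58.8% held ACGTG and 80.4% either core. The share with ACGTG was 44% over the 25 windows of the glycolytic enzymes and 83.3% over the 12 windows of the other HIF targets. A match of these letters is a description of the sequence and not of binding.

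At 0 h few members passed 2-fold between the genotypes, and their share was near that of all genes. Slc2a3, Slc16a3 and Pfkp were higher in KO by at least 2-fold, and no member was lower. That is 3 higher and 0 lower of 37 measured, or 8.11% higher, against 9.33% higher and 4.07% lower over all 20304 genes measured. Among the 14557 genes brighter than the arrays' median the shares were 4.88% higher and 4.97% lower. Under that filter 2 members were higher and 0 lower. The median difference was 0.28 over the members and 0.06 over all genes. Slc2a3 was 1.28 higher in KO, with 2.74 on KO 0 h and 1.46 on WT 0 h, and Slc16a3 was 1.06 higher, with 2.81 on KO 0 h and 1.75 on WT 0 h. Pfkp was 1.01 higher, with 0.67 on KO 0 h and −0.34 on WT 0 h, but its other probe gave 0.48, and with the mean of probes (0.75) or with normexp (0.995) it fell short of 2-fold. Ankrd37 (0.98), Bnip3 (0.96), Car9 (0.93), Pdk2 (0.93) and Aldoc (0.85) lay just under 2-fold. On the same pair of arrays the mast cell markers were higher on KO 0 h in 23 of 23 genes measured, with a median difference of 0.95, and the pan-leukocyte markers in 20 of 20, with a median of 1.05. The fibroblast markers had a median of −0.47. The part of mast cell RNA in the differences of Slc2a3, Slc16a3 and the others was not tested. In such bulk RNA, fewer cells of a type and less RNA per cell cannot be told apart.

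The enzymes again stood near 0 at 0 h, with a median difference of −0.01. The lowest were Pfkm with −0.67, Pkm with −0.47 and Eno1 with −0.31. Hk1 differed by 0.31, Aldoa by 0.23, Hk2 by 0.03, Ldha by less than 0.01, Pgam1 by −0.02, Tpi1 by −0.09 and Gpi1 by 0.14. Pgk1 and Pfkl each differed by −0.13. All 10 measured HIF targets outside the other groups lay above 0, from 0.22 for Ddit4 and Ndrg1 to 0.98 for Ankrd37. Of all 20304 genes measured, 10962 lay above 0, as did all 23 mast cell and all 20 pan-leukocyte markers measured. Pdk1, whose signal was the most strongly lower in KO at 24 h, differed by 0.50 at 0 h, and Ero1l and P4ha1 by 0.79 and 0.54. Pfkfb4 and Pdk4, both higher in KO at 24 h, differed by 0.77 and 0.68 at 0 h. Hif1a differed by −0.15 and Epas1 by −0.10, while Egln1 and Egln3 differed by 0.58 and 0.28. Slc2a1 (0.23), Bnip3l (0.24), Pfkfb3 (0.29), Vegfa (0.35), Higd1a (0.37) and Pdk3 (0.12) lay between these values.

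Between the times, 4 members had far lower signal at 24 h than at 0 h in both genotypes. Aldoc, the brain-type aldolase, read −2.96 on KO 24 h and −2.43 on WT 24 h, against 4.23 on KO 0 h and 3.37 on WT 0 h, which is −7.18 in KO and −5.81 in WT. Slc16a3 read −3.08 on KO 24 h and −2.81 on WT 24 h and was lower than at 0 h by −5.90 in KO and −4.56 in WT. Slc2a3 was lower at 24 h by −6.81 (SE 0.32) in WT and by at least 690.5-fold in KO. Car9 was lower at 24 h by −5.35 (SE 0.26) in KO, with −5.49 on KO 24 h and −0.14 on KO 0 h, and by at least 34.3-fold in WT, with −1.07 on WT 0 h. The mast cell markers moved the same way: 18 of 18 measured were lower at 24 h in KO and 18 of 18 in WT, with medians of −7.88 and −7.92. Their part in the 4 members' differences was not tested. In no other member did the 24 h array lie more than 4 below the 0 h array of its genotype.

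In KO, 9 of 36 measured members were lower at 24 h and 1 was higher, or 25% and 2.78%, against 10.9% and 9.48% of all 17856 genes. Among the 14557 genes brighter than the arrays' median the shares were 9.66% lower and 10.3% higher. Under that filter 8 members were lower and 1 higher. Besides Aldoc, Slc16a3 and Car9, the 9 were Ero1l (−3.75), Bnip3 (−2.88), Pdk1 (−1.98), Ankrd37 (−1.96), P4ha1 (−1.85) and Pdk2 (−1.56). Slc2a3, known in KO only by its bound, is not counted among them. Pdk2 read −2.91 on KO 0 h and −3.83 on WT 0 h, and its other probe gave only −0.07 in KO. With normexp (−0.53) and the mean of probes (−0.82) it fell short of 2-fold. Pfkm was the one that was higher, by 1.33, with 2.41 on KO 24 h and 1.08 on KO 0 h.

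In WT, 5 of 36 members were higher at 24 h and 3 were lower, or 13.9% and 8.33%, against 15.8% and 5.57% of all 19187 genes. Among the 14557 genes brighter than the arrays' median the shares were 4.86% higher and 6.3% lower. Under that filter 5 members were higher and 2 lower. The 5 were Pdk1 (1.399), Ndrg1 (1.35), Pfkl (1.19), Egln3 (1.09) and Pfkm (1.06), and the 3 were Slc2a3, Aldoc and Slc16a3. Egln3 read 0.64 on KO 24 h and 0.71 on WT 24 h, against −0.10 on KO 0 h and −0.38 on WT 0 h, so that both 24 h arrays stood above both 0 h arrays. Pfkm read 2.81 on WT 24 h and 1.75 on WT 0 h and was likewise higher at 24 h in both genotypes. The fibroblast markers were higher at 24 h too, with median differences of 0.97 in KO and 0.49 in WT, and their part in these members' differences was not tested.

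The glycolytic enzymes had a median difference between the times of 0.22 in KO and 0.29 in WT, against 0.23 and 0.28 over all genes. In both genotypes this depended on the scaling. In KO the enzyme median was −0.13 with quantile normalization and −0.14 with normexp, against 0.25 and 0.16 over all genes. In WT the enzyme median was 0.040 and 0.015 with these, against 0.18 and 0.12 over all genes. Pkm was 0.91 higher at 24 h in KO and 0.57 in WT, Pgk1 0.63 and 0.49, Pgam1 0.46 and 0.29, Eno1 0.50 and 0.24, and Tpi1 0.35 and 0.73. Gpi1 differed by 0.23 in KO and 0.29 in WT, and Ldha by 0.20 and 0.21. Hk1, the hexokinase of most tissues, was lower by −0.64 in KO and differed by −0.10 in WT, and Hk2 by −0.53 and −0.11. Aldoa, the muscle-type aldolase, differed by −0.27 in KO and 0.55 in WT, and Pfkp by −0.59 and −0.52. Of the members outside the enzymes, Slc2a1 differed by −0.68 in KO and by less than 0.01 in WT. Pfkfb4 stood at 0.71 in KO and −0.25 in WT, Pdk4 at 0.20 and −0.93, and Pfkfb3 at −0.51 and −0.49. Bnip3l differed by −0.52 in KO and 0.76 in WT, Vegfa by −0.45 and 0.50 at its brightest probe (0.52 and 0.60 at the other), and Ddit4 by 0.02 and 0.97. Pdk3 (0.24 in KO, 0.50 in WT), Hif1a (0.16, 0.63), Epas1 (0.56, 0.38) and Higd1a (0.37, 0.64) were above 0 in both genotypes, and Egln1 stood at −0.83 in KO and 0.61 in WT.

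**Figure D4:**
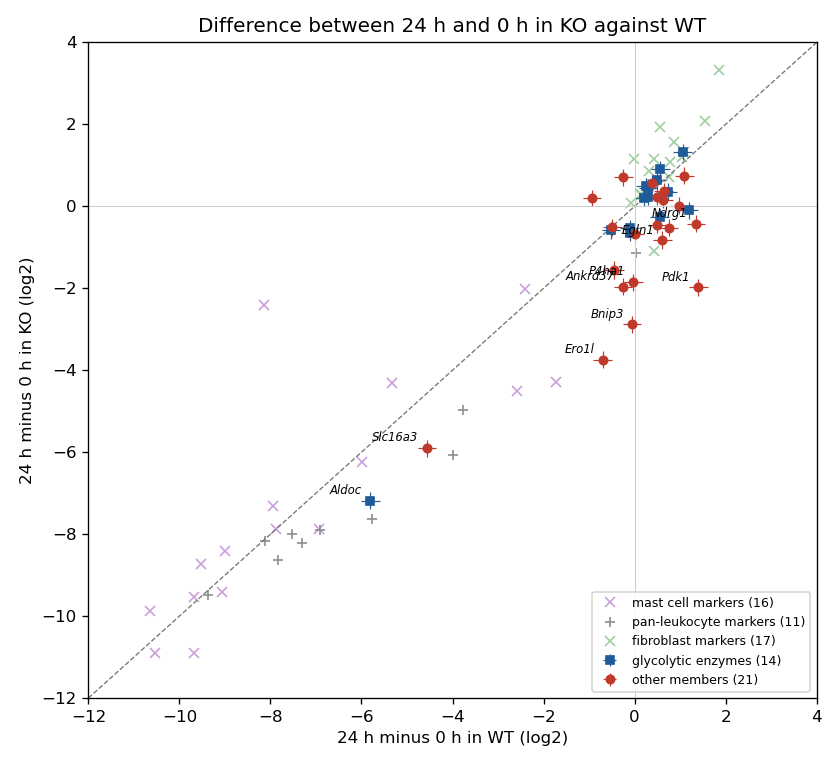
The log2 difference 24 h minus 0 h in KO (y axis) against that in WT (x axis) for the glycolytic enzymes (squares), the other members (circles) and the markers of mast cells, leukocytes and fibroblasts (crosses), with spot SE as bars on the members. On the dashed line both genotypes differ equally between the times. Aldoc and Slc16a3 lie among the mast cell and leukocyte markers at the lower left, while Pdk1, Bnip3, Ero1l, P4ha1 and Ankrd37 lie below the line near 0 on the x axis or right of it.

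The time differences of the 2 genotypes were set against each other as a difference of differences, KO change minus WT change. Its SE was 0.29 to 0.31 for the members, and with 1 array per group it was not tested. It uses all 4 arrays and shares them with the pairwise differences above. Of 35 members, 12 were at least 2-fold below 0 and 1 above, or 34.3% and 2.86%, against 13.3% and 4.72% of all 17110 genes. Among the 14557 genes brighter than the arrays' median the shares were 6.97% below and 5.08% above. The median was −0.47 over the members and 0.03 over all genes, of which 8193 lay below 0. On the same arrays the pan-leukocyte markers lay below 0 in 11 of 11 genes measured, with 4 of them (36.4%) past 2-fold and a median of −0.91. The mast cell markers lay below 0 in 8 of 16, with a median of 0.07, and the fibroblast markers in 3 of 17, with a median of 0.24. The part of other cells' RNA in the members' values was not tested. The 12 were Pdk1 (−3.38), Ero1l (−3.05), Bnip3 (−2.82), P4ha1 (−1.82), Ndrg1 (−1.77), Ankrd37 (−1.70), Egln1 (−1.44), Aldoc (−1.38), Slc16a3 (−1.34), Pfkl (−1.29), Bnip3l (−1.27) and Pdk2 (−1.10). Pdk2 fell short of 2-fold with quantile normalization (−0.76), normexp (−0.32) and the mean of probes (−0.80), and Egln1 with normexp (−0.75). Pdk4 was the one above, at 1.14, and fell short of 2-fold with quantile normalization (0.94), normexp (0.91) and both fibroblast scalings (0.25 and 0.90). Just inside 2-fold were Vegfa (−0.96 at its brightest probe and −0.08 at the other), Ddit4 (−0.95), Pfkfb4 (0.95) and Aldoa (−0.81).

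The roles differed in this measure. All 9 of the measured HIF targets outside the other groups lay below 0, with a median of −1.70, ranging from −3.05 for Ero1l to −0.27 for Higd1a. The 14 enzymes had a median of −0.06, with 2 of them, Aldoc and Pfkl, past 2-fold below 0. That is 14.3%, against 13.3% of all genes and 6.97% of those brighter than the arrays' median. Pgk1, Pgam1, Eno1, Pkm and Pfkm lay between 0.14 and 0.35, Ldha lay within 0.01 of 0, and Gpi1 and Pfkp were at −0.06 and −0.07. For Pdk1 the 2 genotypes differed in opposite directions, −1.98 in KO and 1.399 in WT. KO 24 h was the lowest of the 4 arrays for 7 of the 9 HIF targets (77.8%), for 5 of the 14 enzymes (35.7%), and for 22.7% of all genes. Among genes brighter than the arrays' median it was the lowest for 19.4%.

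The choice of scaling bears on the members' median at 24 h. With arrays scaled on fibroblast markers the KO minus WT median of the members turned to 0.0032, and it was 0.12 with a second form of that scaling. Both moved the median of all genes as well, to 0.30 and 0.42, and by its construction this scaling leaves the members' distance from all genes as it was, −0.30 for the members and −0.94 for the other HIF targets. Bnip3, Ero1l, Pdk1 and Ndrg1 remained at least 2-fold lower in KO under both. Bnip3l and P4ha1 did not, and Pfkl did only under the first.

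The wider pathway, in 83 further genes, did not show 1 direction at 24 h. Of 32 further genes of glucose and pyruvate metabolism, 27 were measured at 24 h, with 2 higher in KO and 3 lower, or 7.41% and 11.1%, against 5.76% and 12.3% of all genes. Ldhb, the heart-type lactate dehydrogenase, was 4.46 higher, with −0.27 on KO 24 h and −4.73 on WT 24 h, and Bpgm, which makes 2,3-bisphosphoglycerate, was 1.52 higher. Pgam2 (−1.35), Slc2a4 (GLUT4, −1.23) and, at just 2-fold, Pgm2 were lower. Gapdh read 6.53 on KO 24 h and 6.56 on WT 24 h. None of the 9 measured of 11 further genes of the HIF pathway, which include Arnt and Vhl, passed 2-fold. Of the other 2, each well above background on 1 array, Arnt2, a partner of HIF alpha subunits, was at least 4.02-fold higher in KO and Hif3a, a HIF alpha subunit, at least 2.65-fold lower.

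Of 40 further HIF targets, 35 were measured at 24 h and divided into 6 higher and 7 lower ones in KO, or 17.1% and 20%. Over all genes 5.76% were higher and 12.3% lower. Among the 14557 genes brighter than the arrays' median the shares were 6.36% and 7.29%. The median of these targets was −0.34, against −0.09 over all genes. The lowest were Adm, the vasodilator adrenomedullin, with −3.53, Zfp395 with −1.99 and Ppfia4 with −1.70. The highest were Loxl2, a lysyl oxidase that crosslinks collagen, with 3.76, Flt1, a VEGF receptor, with 1.76 and Tfrc, the transferrin receptor, with 1.70. Adm and Loxl2 differed at 0 h as well. Adm read −1.42 on KO 24 h, 2.11 on WT 24 h, −0.98 on KO 0 h and 1.68 on WT 0 h, and Loxl2 read 0.37, −3.39, −0.15 and −4.67 on the same arrays. Ldhb also differed at both times, by 4.10 at 0 h. In this they were unlike Pdk1, Ero1l, Bnip3, P4ha1, Ndrg1 and Pfkl, none of which was lower in KO by 2-fold at 0 h.

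At 0 h, 3 of 30 measured genes of the further metabolic list were higher in KO and none was lower, or 10% higher against 9.33% of all genes, Fbp2 (1.42) and Slc2a6 (1.04) beside Ldhb. The further HIF pathway genes had none of 10 measured past 2-fold, and Arnt2, outside these 10, was at least 3.91-fold higher in KO. Of 37 further HIF targets, 5 were higher, led by Loxl2 (4.53), Ak4 (1.21) and Car12 (1.18), and 3 were lower, Adm (−2.66), Rcor2 (−1.13) and Angptl4 (−1.09). These are 13.5% higher and 8.11% lower, against 9.33% and 4.07% of all genes.

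Between the times, the metabolic list had 4 of 27 higher at 24 h and 2 lower in KO, and 6 of 29 higher and 1 lower in WT. The shares higher and lower were 14.8% and 7.41% in KO and 20.7% and 3.45% in WT, against 9.48% and 10.9%, and 15.8% and 5.57%, of all genes. Eno2, the neuronal enolase, was higher by 1.77 in KO and 1.84 in WT, and Slc2a6 was lower by −1.94 and −1.25. Of the HIF pathway, Cited2, which competes with HIF for its coactivator, was lower at 24 h by −1.52 in KO and −1.60 in WT. In KO, 5 of 34 measured further HIF targets were higher and 8 lower, with Rora (−2.26), Bhlhe40 (−1.77) and Kdm4b (−1.51) lowest. In WT, 6 of 37 were higher and 2 lower, with Selenbp1 (−3.89) lowest. These are 14.7% higher and 23.5% lower in KO and 16.2% higher and 5.41% lower in WT. Car12 was lower at 24 h by at least 271.3-fold in KO and 83.5-fold in WT. In the difference of differences 9 of 34 further HIF targets were below 0 by at least 2-fold and 3 above, or 26.5% and 8.82%, against 13.3% and 4.72% of all genes. Their median was −0.32, against 0.03 over all genes, and Rora (−2.21), Ppfia4 (−1.98) and Zfp395 (−1.71) were lowest. The lists of further genes were not tested as sets.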

How the data were processed

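RNA of 4 groups, with 1 array of pooled RNA each, was measured on single-channel Agilent arrays of design 026655 that lay on 1 slide. Per the file headers, Agilent Feature Extraction 12.1.1.1 gave the spot intensity, background-subtracted and detrended within each array. The deposited value table holds a ratio, the processed signal over the array's 75th percentile, on a linear scale and not centred. Signal over table value was 749.899 (KO 24 h), 926.641 (WT 24 h), 1002.93 (KO 0 h) and 1197.47 (WT 0 h), and the table's column medians were 0.0334, 0.0452, 0.0483 and 0.0442.

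From the scanner files, flagged and control spots were left out, processed intensity was taken to log2 and the array's 75th percentile over 43020 non-control spots was subtracted. Spots of a probe were averaged, and a gene took its probe with the highest mean signal. No spot was saturated. A difference needed the probe well above background on both arrays, which 17110 genes had on all 4. Where 1 array missed this, an at-least fold divides the bright array's signal by the dim array's floor, which is the lowest signal well above background there or, where larger, the probe's reading. Accessions matched all 38 members to RefSeq genes, 37 under the same symbol. With 1 array per group no test was made, and 2-fold marks a difference between arrays.

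The members and lists were chosen with earlier results of these data known. Named genes are all members, with full values for those at least 2-fold apart in any pairwise difference, and up to 3 at each end of each further list. The marker lists hold mast cell, pan-leukocyte and fibroblast genes. The code was tested on simulated data. The 8 alternatives were quantile normalization, normexp with offset 50 and quantile normalization (limma 3.58.1 in R 4.3.3), the authors' table, no filter or a stricter filter on dim probes, the mean of probes, and 2 scalings on 17 fibroblast markers, of which the scaling by deviations was chosen after seeing the data. Python 3.11.15 with pandas 2.3.3 did the rest.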

Additional observations from a re-analysis of the deposited data

Results flagged for a closer look

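Pdk1 is given again because its difference between the times ran in opposite directions in the 2 genotypes. The signal at 24 h was −1.98 relative to 0 h in KO (SE 0.21) and 1.399 relative to 0 h in WT (SE 0.20). KO change minus WT change was −3.38 (SE 0.29). With 1 array per group the difference between the genotypes was not tested. The gene rests on 1 probe, well above background on all 4 arrays. Under the 8 alternatives its sign stayed negative in KO and positive in WT, between −3.09 and −1.23 in KO and between 0.78 and 1.54 in WT.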

How the results depend on the processing

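No paired analysis was possible because each group has 1 array. Of 200 counts and medians recomputed under the 8 alternatives, 148 stayed within 1.5 times the count or within the members' SE, and 52 moved. Of 1424 values of single members, 437 moved by more than their SE and none past 2-fold changed sign. Scaling on fibroblast markers moved the most, and it moved all genes with the members: the median of all genes became 0.30 (KO minus WT, 24 h), 1.34 (KO minus WT, 0 h), −0.89 (24 h minus 0 h, KO), 0.050 (24 h minus 0 h, WT) and −0.86 (difference of differences). In the same order of differences, the medians of all members, glycolytic enzymes and other members became 0.0032, 0.22 and −0.21, then 1.56, 1.27 and 1.79, then −1.46, −0.90 and −1.63, then 0.065, 0.065 and −0.033, and last −1.36, −0.95 and −1.84. At 24 h, 3 of 35 members were higher in KO and 5 lower, against 12.5% and 7.04% of all genes. At 0 h, 34 of 37 were higher in KO, against 75.7% of all genes. Between the times 0 of 36 were higher and 21 lower in KO, against 0.47% and 43.3% of all genes. In WT 2 of 36 were higher, against 11.3%. In the difference of differences 0 of 35 were above and 23 below, against 0.655% and 41% of all genes.

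With scaling by deviations of the fibroblast markers, chosen after seeing the data, the medians of all genes became 0.42, 0.81, −0.63, −0.34 and −0.21. Those of all members, enzymes and other members became 0.12, 0.34 and −0.089 (KO minus WT, 24 h), 1.03, 0.74 and 1.26 (KO minus WT, 0 h), −1.20, −0.64 and −1.37 (24 h minus 0 h, KO), and −0.33, −0.33 and −0.42 (24 h minus 0 h, WT). At 24 h, 3 of 35 members were higher in KO and 4 lower, against 16.3% and 5.79% of all genes. At 0 h, 19 of 37 were higher, against 38.1%. Between the times 0 of 36 were higher and 19 lower in KO, against 0.79% and 32% of all genes. In WT 0 of 36 were higher and 8 lower, against 4.27% and 13.4%. In the difference of differences 0 of 35 were above, against 2.45% of all genes.

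Quantile normalization gave 5 members higher in KO at 0 h (all genes 6.87%) and 0 above in the difference of differences (all genes 7.37%). Its enzyme median between the times in KO was −0.13 (all genes 0.25). In WT its medians between the times were 0.075 for all members and 0.040 for enzymes (all genes 0.18). Normexp gave 3 members higher at 24 h in WT (all genes 2.42%) and 0 above in the difference of differences (all genes 2.74%). Its enzyme median between the times in KO was −0.14 (all genes 0.16). In WT its medians were 0.056 for all members and 0.015 for enzymes (all genes 0.12). The mean of probes gave 1 member higher in KO at 0 h (all genes 5.49%) and 2 higher at 24 h in KO (all genes 8.61%). P4ha1 was −0.97 with normexp for KO minus WT at 24 h. For 24 h minus 0 h in WT, Pfkm was 0.89 with quantile normalization and 0.90 with normexp. Under scaling by deviations none of Pdk1, Ndrg1, Pfkl, Egln3 and Pfkm was 2-fold higher at 24 h in WT. The causes were not tested. Signal over background limits the dim members: the lowest signal well above background was −6.69 on KO 24 h. The 8 spike-in transcripts at or above −4 were higher on KO 24 h than on WT 24 h by a median of 0.55. Their median was 0.33 for KO minus WT at 0 h and 0.18 for the difference of differences. For 24 h minus 0 h it was 0.46 in KO and 0.245 in WT.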

Other observations

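Separate probes disagreed for several members, among them Pfkfb3 and Pdk2 above, and 3 more are given here. Epas1 had 3 measured probes, whose 24 h minus 0 h differences in KO were 2.63, 2.30 and 0.56, the last at the brightest probe, against 1.16, 1.52 and 0.38 in WT. Vegfa differed between KO 24 h and WT 24 h by −0.60 at its brightest probe and by 0.25 at its other one, while both were higher in KO at 0 h, by 0.35 and 0.33. Hif1a differed between the times in KO by 0.16 at its brightest probe and by −0.84 at its other one, and both were lower in KO at 24 h, by −0.62 and −0.84.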
